A study of Homo sapiens with 6 samples.

Results

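The MYC, MAX and MXD network was taken as the 10 rows of the count table with the symbols MYC, MYCN, MYCL, MAX, MXD1, MXI1, MXD3, MXD4, MNT and MLX, out of 26490 gene symbols in all. The samples were 6 RNA-seq libraries of SW403, a long-established line grown from a human colon adenocarcinoma. The 3 control libraries (WT in the genotype label, NS in the descriptions) came from cells without the knockdown. The 3 knockdown libraries came from cells with IRS2 lowered, which the titles and genotype call a knockdown and the descriptions a KO. All cells were grown for 24 h in DMEM with 10% fetal bovine serum and received no treatment. IRS2 encodes an adaptor protein through which activated insulin and IGF1 receptors recruit PI3-kinase. How it was lowered, and whether a group is 1 cell line or several, is not given in the labels. The titles call the libraries biological replicates, while the cultures were seeded in triplicate. The p-values therefore measure the spread between these cultures, which may be technical.

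MYC, MYCN and MYCL are transcription factors of the basic helix-loop-helix leucine zipper class. They bind DNA only as dimers with MAX, at E-box sequences such as CACGTG, and raise the expression of genes for ribosome production, nucleotide synthesis and growth. MXD1, MXI1, MXD3, MXD4 and MNT compete for MAX and recruit histone deacetylases through SIN3 proteins, so they act as repressors at the same sites. MLX is a second hub that pairs with MXD1, MXD4, MNT and the glucose-responsive factors MLXIP and MLXIPL. In colon tumours, MYC is a well-known target of beta-catenin and its TCF partners.

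MXD4, a repressor, was lower by 48.3% in the knockdown cells, while MYC was higher by 20.2% and the repressor MXD1 by a similar amount. The other members that could be tested did not pass the threshold. A total of 9 members passed the low-count filter, and MYCN did not. In edgeR's quasi-likelihood test with p-values adjusted over all genes, 3 of the 9 had an adjusted p under 0.05, of which 2 were higher and 1 was lower in knockdown. Over all 13832 genes tested, 38.5% passed, 19.3% higher and 19.2% lower, so the share among the members was near that of the whole table. The median log2 fold change was -0.01 over the 9 members and -0.004 over all genes.

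The start regions of 4 members are shown because MXD1 and MXD4 changed and because 3 members carry the palindromic E-box CACGTG, printed in capitals. Each is the 250 bases before the annotated start, written 5′ to 3′ on the strand of the gene, from RefSeq on GRCh38.p14. The MXD4 window is chr4:2262110-2262359 (minus strand), that of MNT chr17:2401061-2401310 (minus), that of MLX chr17:42566850-42567099 (plus) and that of MXD1 chr2:69914859-69915108 (plus).
MXD4: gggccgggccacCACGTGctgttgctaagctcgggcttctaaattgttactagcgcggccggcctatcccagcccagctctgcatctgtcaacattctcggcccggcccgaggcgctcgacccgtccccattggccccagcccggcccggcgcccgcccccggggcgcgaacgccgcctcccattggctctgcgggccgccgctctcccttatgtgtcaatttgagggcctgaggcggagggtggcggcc
MNT: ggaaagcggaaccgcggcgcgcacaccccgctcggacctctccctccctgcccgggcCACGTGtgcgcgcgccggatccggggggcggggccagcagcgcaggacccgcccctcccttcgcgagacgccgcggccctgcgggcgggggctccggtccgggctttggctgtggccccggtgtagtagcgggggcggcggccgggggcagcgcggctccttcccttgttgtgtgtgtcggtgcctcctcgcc
MLX: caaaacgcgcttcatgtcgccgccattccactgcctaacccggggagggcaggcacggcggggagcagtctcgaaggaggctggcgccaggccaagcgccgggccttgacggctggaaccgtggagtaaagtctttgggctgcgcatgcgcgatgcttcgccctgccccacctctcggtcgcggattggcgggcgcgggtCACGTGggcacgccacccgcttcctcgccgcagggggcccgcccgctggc
MXD1: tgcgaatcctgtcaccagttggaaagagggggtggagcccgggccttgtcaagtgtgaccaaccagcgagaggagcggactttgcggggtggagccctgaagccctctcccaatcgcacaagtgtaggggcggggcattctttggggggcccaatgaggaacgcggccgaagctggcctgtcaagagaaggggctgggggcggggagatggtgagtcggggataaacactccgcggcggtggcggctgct
Counted from the start, the E-box began at -238 in MXD4, at -193 in MNT and at -50 in MLX. The motif is its own reverse complement, so a search of 1 strand covers both. It was found in 3 of 12 windows, which belonged to the 9 members other than MYC (MAX and MXI1 have several starts), and in 6.34% of 35116 windows of this length genome-wide. MYC was not searched. Of the 3 members with the motif, MXD4 fell and MNT and MLX did not pass the threshold. MXD1 rose and its window holds none.

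The targeted gene was lower in every knockdown library. IRS2 (chromosome 13, GRCh37, 110405042 to 110438930) was at 32.4, 34.8 and 32.2 CPM in control and at 12.98, 12.3 and 11.9 CPM in knockdown. CPM, counts-per-million, is the count scaled to the total of its library. Its log2 fold change was -1.39 ± 0.07 (SE), with an edgeR adjusted p of 3.12e-11. Control libraries held 11816973 to 12585013 counts and knockdown libraries 14329348 to 18114656, so the knockdown libraries were all deeper. Of the 10 colon epithelial markers listed, KRT8, KRT18, KRT19, EPCAM and CDX2 were detected in every library with at least 467 counts and VIL1 with at least 41. Of the 6 that were tested, 1 was higher and 2 were lower in knockdown. CDH1 and LGALS4 had at most 5 counts, and KRT20 and CDX1 had 0. The summed level of the 12 markers of fibroblast, immune and endothelial cells was 27.9 CPM in control replicate 1, 10.7 and 9.99 CPM in the other control libraries and 6.5 to 8.65 CPM in knockdown. COL1A1 made up most of the sum in control replicate 1 (15.3 CPM, against 5.73 and 5.67 in the other controls and 3.63 to 4.26 in knockdown). PECAM1 had 0 counts in all libraries, and PTPRC and THY1 at most 1. Of the 12, 3 were tested and 2, COL1A1 and COL3A1, were lower in knockdown. COL3A1 had 3 to 34 counts and its groups overlapped. Without control replicate 1, 1 of 3 tested markers was lower, and their median log2 fold change was -0.503, against -1.151 with all libraries. Fold changes of the 3 members that changed are given below also without control replicate 1. The source of this marker RNA, and its part in any other result, were not tested.

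MYC (chromosome 8, GRCh37, 128747680 to 128755197, 3 exons) was the most abundant member, also per length (below). It had 314, 310.2 and 305 CPM in control and 358, 362 and 374 CPM in knockdown. Every knockdown library was above every control library. The increase was 20.2%, a log2 fold change of 0.27 ± 0.03 (SE), with an edgeR adjusted p of 1.84e-06. Without control replicate 1 it was also 0.27. Over 18 alternative fits the log2 fold change of MYC ran from 0.24 to 0.28 and passed the threshold in each. In bulk RNA, more MYC RNA per cell and more cells with a high level cannot be told apart. An antisense transcript, CASC11, shares 194 exonic bases with MYC, but its mean was 10.0 counts per library.

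The other MYC family genes had few counts. MYCL, on chromosome 1 (40361100 to 40367928), had 31, 33 and 20 counts in control and 32, 38 and 42 in knockdown. These are 2.46, 2.63 and 1.69 CPM against 2.23, 2.23 and 2.32 CPM, so the groups overlapped. Its log2 fold change was 0.02 ± 0.22 (SE; edgeR adjusted p 0.945), and the large error leaves a change of the size seen for MYC undetectable at this depth. MYCN, on chromosome 2 (16080672 to 16087129), had 1, 2 and 0 counts in control and 0, 0 and 1 in knockdown, and was not tested. Of the MYC-type members, MYC RNA was thus the form present at an appreciable level in these cells.

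MAX and MLX, the hubs, did not pass the threshold. MAX (chromosome 14, 65472892 to 65569413) had 62.4, 60.0 and 64.2 CPM in control and 53.1, 58.3 and 61.7 CPM in knockdown, with overlapping groups. Its log2 fold change was -0.07 ± 0.05 (SE; edgeR adjusted p 0.322). MLX (chromosome 17, 40719090 to 40725257) had 76.7, 72.8 and 71.3 CPM in control and 74.1, 69.1 and 71.9 CPM in knockdown. Its log2 fold change was -0.01 ± 0.05 (SE; edgeR adjusted p 0.903). The MLX value needs care, because 775 of its exonic bases are shared with PSMC3IP, a recombination gene on the opposite strand. Whether strand was used in counting is not stated. PSMC3IP itself was lower in knockdown, at 24.8, 24.8 and 24.4 CPM against 17.4, 19.2 and 19.3 CPM (log2 fold change -0.37 ± 0.07 SE, edgeR adjusted p 0.000356), and it is named because of this overlap. Its part in the MLX value was not tested. MNT likewise shares 1065 exonic bases with an antisense RNA that was not analysed here.

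**Figure D1:**
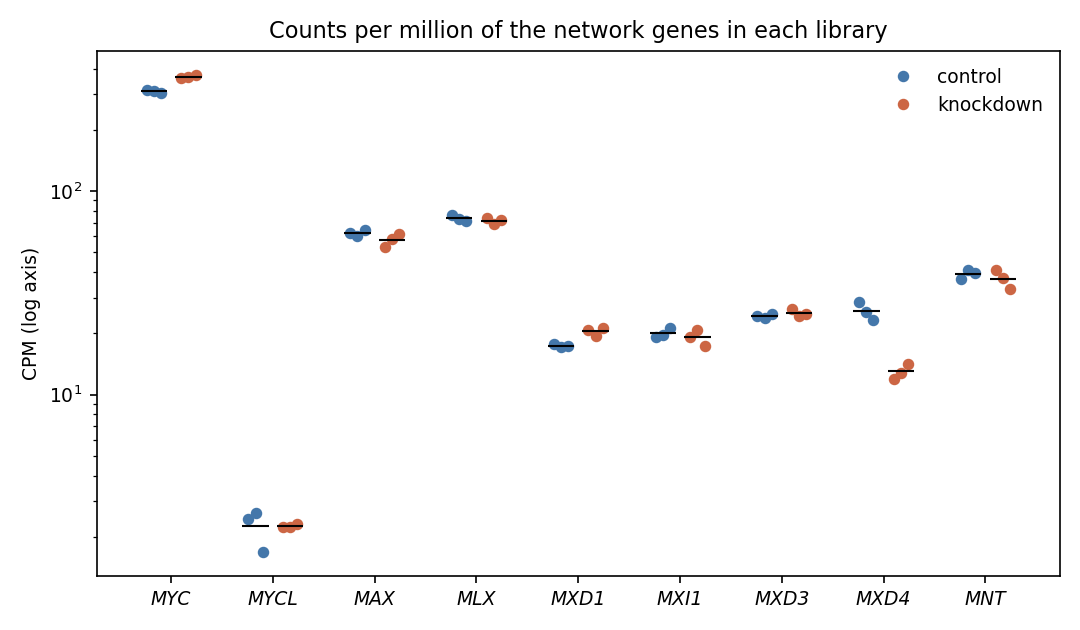
CPM of 9 members in each library on a log axis, with control in blue, knockdown in orange and black bars at the group means (n = 3 each). MYCN, with at most 2 counts, is not drawn. MXD4 is the 1 member whose knockdown points, 12.003 to 14.2 CPM, lie far below the control points, 23.4 to 28.4 CPM, while MYC and MXD1 are shifted up by less.

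Among the repressors the members moved in different directions. MXD4 (chromosome 4, 2249159 to 2263836), a MAX partner known from differentiating and resting cells, had 28.4, 25.6 and 23.4 CPM in control. In knockdown it had 12.003, 12.8 and 14.2 CPM, below every control library. It fell by 48.3%, a 1.93-fold decrease (log2 fold change -0.95 ± 0.09 SE), with an edgeR adjusted p of 7.34e-08. Control replicate 1, the highest for MXD4, was also the library with the most collagen RNA, and without it the log2 fold change was -0.88. Among all tested genes, 4.51% (624 genes) passed the threshold with a fall at least as large. MXD4 ranked 258 by p-value.

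MXD1 (chromosome 2, 70124820 to 70170077), the first described of these repressors, moved the other way. It had 17.8, 17.1 and 17.4 CPM in control and 20.9, 19.5 and 21.3 CPM in knockdown, with no overlap. The log2 fold change was 0.27 ± 0.07 (SE; edgeR adjusted p 0.00762), and 0.28 without control replicate 1. Its call depended on the test, since DESeq2's Wald test gave the same log2 fold change of 0.27 with an adjusted p of 0.0812. In the 17 other alternative fits MXD1 remained past the threshold.

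MXI1, MXD3 and MNT did not pass the threshold, and their groups overlapped. MXI1 (chromosome 10, 111967363 to 112047123) had 19.1, 19.7 and 21.2 CPM in control and 19.3, 20.9 and 17.4 CPM in knockdown. MXD3 (chromosome 5, 176728462 to 176739758), which is known for expression in dividing cells, had 24.3, 23.7 and 24.9 CPM in control and 26.5, 24.4 and 25.0 CPM in knockdown. MNT (chromosome 17, 2287367 to 2304398), the broadly expressed repressor of the network, had 37.1, 40.8 and 39.8 CPM in control and 41.1, 37.3 and 33.1 CPM in knockdown. Their log2 fold changes were -0.03 ± 0.08 for MXI1, 0.08 ± 0.07 for MXD3 and -0.06 ± 0.07 for MNT (SE), with edgeR adjusted p-values of 0.803, 0.331 and 0.566. The groups did not overlap for 3 of the 9 tested members (MYC, MXD1 and MXD4), against 48.4% of all tested genes.

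**Figure D2:**
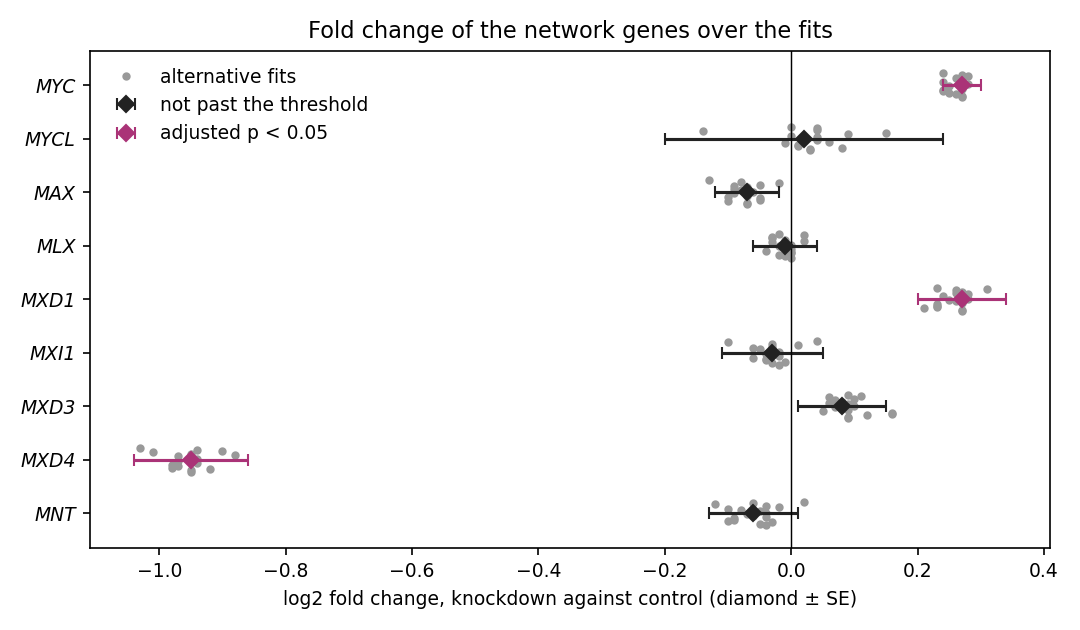
Log2 fold change of knockdown against control for 9 members. Diamonds with bars are the estimate ± SE (purple where the edgeR adjusted p was under 0.05), and grey points are the alternative fits. MXD4 lies between -1.03 and -0.88 in all 18 alternatives and MYC between 0.24 and 0.28, while the ranges of MXI1, MYCL, MNT and MLX span 0.

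Levels of different genes were compared per length, as CPM per kilobase of the canonical GENCODE transcript. In control, MYC was at 83.3 ± 1.12 (SD, n = 3) on this scale, followed by MLX at 31.2 ± 1.18 and MAX at 31.0 ± 1.05, whose libraries overlapped. MXD3 followed at 22.8 ± 0.542, then MNT at 7.97 ± 0.39, MXD4 at 6.65 ± 0.649, MXI1 at 5.77 ± 0.297, MXD1 at 3.14 ± 0.0616 and MYCL at 0.642 ± 0.142 (SD of 3 libraries a group). The per-length levels of MXD4 (6.03 to 7.33) and MXI1 (5.52 to 6.1) overlapped in control. In knockdown, MXD4 was at 3.36 ± 0.286, below MXI1 at 5.54 ± 0.509 and MXD1 at 3.7 ± 0.175 within every library (SD of 3 libraries a group). The ranges of MXD4 (3.1 to 3.67) and MXD1 (3.51 to 3.84) over the knockdown libraries overlapped.

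The per-length level of MYC divided by the sum of the 5 repressors was 1.82, 1.82 and 1.76 in control and 2.11, 2.25 and 2.36 in knockdown, with no overlap. The level of MYC divided by that of MAX was 2.72, 2.79 and 2.57 in control and 3.64, 3.36 and 3.28 in knockdown, again with no overlap. Of the summed level of the 5 repressors, MXD4 made up 15.8%, 14.4% and 12.9% in control and 6.8%, 7.63% and 8.6% in knockdown. The sum itself was at 46.3 ± 0.385 in control and 43.8 ± 1.59 in knockdown (SD of 3 libraries a group). The sum was dominated by MXD3, whose level depends on the transcript taken. With its longest coding transcript of 2269 nt in place of the canonical one of 1067 nt, MXD3 was at 10.7 ± 0.255 in control (SD, n = 3), and the ratio of MYC to the repressors was 2.43 in control and 3.14 in knockdown. These ratios are descriptions with no test, and RNA levels do not give the amounts of the proteins that dimerize.

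**Figure D3:**
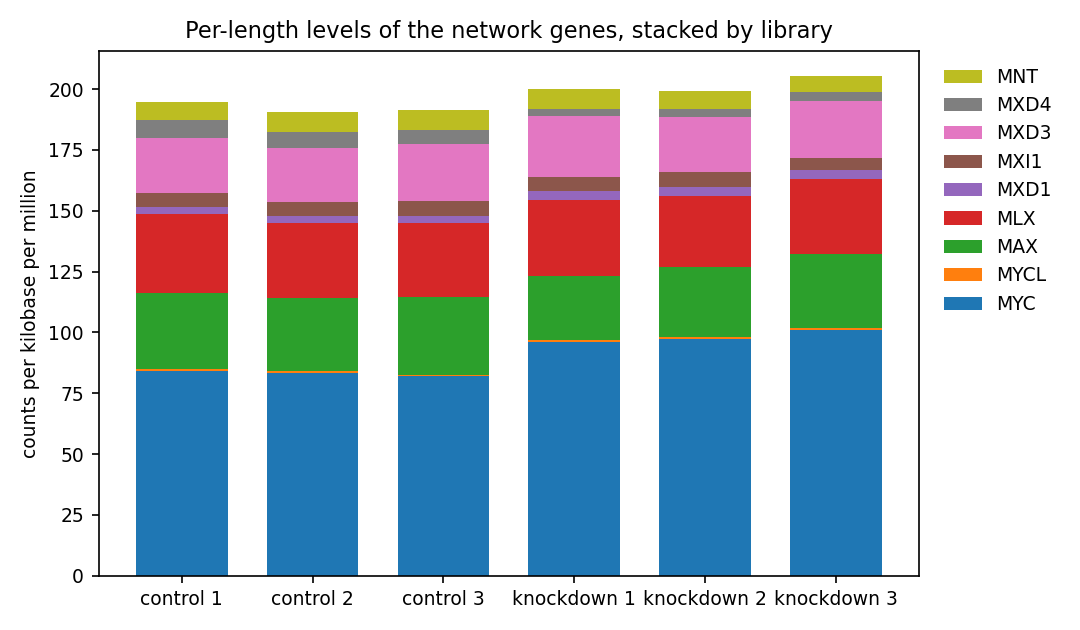
Stacked per-length levels (CPM per kilobase of canonical transcript) of 9 members in each library. The MYC part grows from 82.1 to 84.3 in control to 96.1 to 101 in knockdown, and the MXD4 part shrinks from 6.03 to 7.33 to 3.1 to 3.67, while MAX, MLX and MXD3 keep bands of like height.

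The genes with a library profile nearest to that of MXD4 were ATP8B2, CST1 and RDH14. Nearness was the root mean square difference of centred log2 CPM over the 6 libraries, taken over 9030 genes whose mean count was 200 or more. It was 0.0883 for ATP8B2, 0.0931 for CST1 and 0.0944 for RDH14. Their log2 fold changes were -1.03, -0.81 and -0.8. All 3 were lower in knockdown, but the libraries form only 2 groups, so the choice by nearness to MXD4 builds this direction in.

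Of the other factors that bind MAX or MLX, MLXIP rose. MLXIP, which encodes the glucose-responsive MLX partner MondoA, was at 106, 108 and 109.8 CPM in control and at 118, 120.0 and 118 CPM in knockdown. Its log2 fold change was 0.16 ± 0.04 (SE; edgeR adjusted p 0.00159). MLXIPL, encoding the related factor ChREBP, was at 4.6 ± 1.23 and 5.39 ± 0.383 CPM (SD of 3 libraries a group), with 0.258 as edgeR's adjusted p. MGA, a large MAX partner with repressor function, was at 71.2 ± 6.01 and 73.2 ± 8.76 CPM (SD of 3 libraries a group), with 0.487 as edgeR's adjusted p. MGA had a log2 fold change of 0.16 and an adjusted p of 0.0262 when knockdown replicate 3 was left out.

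The counts for the gene lists that follow are to be read against the whole table, where 19.3% of tested genes rose, 19.2% fell and the median log2 fold change was -0.004. In the list of 18 corepressor genes through which MXD and MNT proteins act, 4 rose and 6 fell, 55.6% of the list (median log2 fold change -0.08). HDAC1, a histone deacetylase of the SIN3 complex, fell from 194 ± 1.56 to 152 ± 2.34 CPM (SD of 3 libraries a group). The log2 fold change was -0.32 ± 0.03 (SE) at an edgeR adjusted p of 2.97e-07. SUDS3 and BRMS1, further SIN3 complex subunits, had log2 fold changes of -0.21 and -0.17. Among the genes that rose were NCOR1, a corepressor of nuclear receptors, at 0.15, SAP130 at 0.13 and BRMS1L at 0.19, the last named after its value was seen. For BRMS1L the groups overlapped. SIN3A, the MXD-binding scaffold, did not pass and was at 88.6 ± 2.67 and 84.2 ± 6.0 CPM (SD of 3 libraries a group), with 0.498 as edgeR's adjusted p. In the list of 18 cofactors of MYC, 2 rose and 2 fell, 22.2% of the list (median -0.002), and PAF1 (0.14), TRRAP (0.13) and CDK9 (-0.16) were among the genes that passed. TRRAP, the scaffold of MYC-recruited acetyltransferases, passed in 5 of 18 alternative fits, and its groups overlapped.

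In the list of 15 genes that regulate MYC transcription, which holds beta-catenin, its TCF partners and the Mediator kinase module, 8 rose and 1 fell, 60.0% of the list against 38.5% of all tested genes (median log2 fold change 0.21). Over the alternative fits this median ran from 0.141, with the length and GC content correction and replicate block, to 0.234, without control replicate 3. CDK8, the Mediator kinase, rose from 122 ± 3.86 to 157 ± 3.56 CPM, and MED12, its activator, from 70.5 ± 3.42 to 97.4 ± 8.04 CPM (SD of 3 libraries a group), and their log2 fold changes were 0.39 and 0.49. CCNC, also of this module, did not pass and was at 85.5 ± 3.89 and 84.6 ± 2.41 CPM (SD of 3 libraries a group), with 0.796 as edgeR's adjusted p. TCF7, which encodes a TCF factor, rose from 80.6 ± 1.49 to 106 ± 4.99 CPM (SD of 3 libraries a group), a log2 fold change of 0.42. CTNNB1, the beta-catenin gene, was the gene that fell, by 0.1 on the log2 scale (edgeR adjusted p 0.0102). In the list of 19 genes of MYC protein turnover, 5 rose and 2 fell, 36.8% of the list (median 0.03). AURKA and PLK1, mitotic kinases known to protect MYC proteins from degradation, had log2 fold changes of 0.37 and 0.23. USP28, a deubiquitinase of MYC, had one of 0.45. HUWE1 and PPP2R5A, named after their values were seen, had 0.24 and 0.17, and the groups overlapped for HUWE1. STUB1 (-0.12) was among the genes that fell. FBXW7, the ubiquitin ligase subunit that marks phosphorylated MYC, was at 17.4 ± 2.33 and 18.3 ± 0.702 CPM (SD of 3 libraries a group), with 0.386 as edgeR's adjusted p.

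Genes that MYC is known to induce were grouped into nucleolar, metabolic and growth lists. In the nucleolar list of 31 genes, 2 rose and 7 fell, 29.0% of the list, with a median log2 fold change of -0.02. DKC1 and DDX18 had 0.14 and 0.12, and WDR74, PPAN and NIP7 had -0.2, -0.2 and -0.14. For DDX18 the groups overlapped. NCL, encoding nucleolin, was at 1946 ± 21.6 and 1891 ± 50.1 CPM (SD of 3 libraries a group), with 0.777 as edgeR's adjusted p. In the metabolic list of 29 genes, 12 rose and 4 fell, 55.2% of the list, with a median of 0.06. HK2, the first enzyme of glycolysis, and CAD, which starts pyrimidine synthesis, had log2 fold changes of 0.26 and 0.22. CTPS1, LDHA and PRPS2 had -0.2, -0.1 and -0.13. ODC1, a classical MYC target in polyamine synthesis, was at 510.5 ± 3.66 and 521 ± 23.8 CPM (SD of 3 libraries a group), with 0.179 as edgeR's adjusted p. Over the 18 alternative fits, 7 to 17 genes of the metabolic list were higher and 1 to 7 were lower. The split was even, 7 and 7, with library size alone in place of the TMM factors, where the whole table had 2206 higher and 3198 lower genes.

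In the list of 16 growth genes 1 rose and 6 fell, 43.8% of the list, with a median log2 fold change of -0.07. Over the alternative fits this median ran from -0.099, with library size alone, to -0.013, with the length and GC content correction. In those fits 0 to 2 genes of the list were higher and 3 to 9 were lower. CCND2, encoding cyclin D2, had the largest log2 fold change in size of the 3 induced lists and fell from 16.6 ± 1.21 to 6.82 ± 0.909 CPM (SD of 3 libraries a group). The log2 fold change was -1.25 ± 0.11 (SE) at an edgeR adjusted p of 3.12e-08. CDK4 and E2F1 had -0.18 and -0.24, and ID2 rose with 0.12. Of the 14 genes that MYC is known to repress, 5 rose and 3 fell, 57.1% of the list (median -0.04). CDKN1B, encoding the cell cycle inhibitor p27, rose from 63.2 ± 1.32 to 89.0 ± 4.55 CPM (SD of 3 libraries a group). The log2 fold change was 0.53 ± 0.05 (SE) at an edgeR adjusted p of 5.89e-08. CDKN1A, CDKN2B and CDKN2C, other cell cycle inhibitor genes of this list, did not pass. Their log2 fold changes were -0.04, 0.14 and -0.05, with 0.789, 0.268 and 0.58 as edgeR's adjusted p-values. FTH1, the ferritin heavy chain, had 0.34 and NDRG1 had 0.18. HBP1 and CLU, named after their values were seen, had 0.34 and 0.19. GAS1 (-1.46), THBS1 (-0.87) and NDRG2 (-0.59) were the genes that fell, all at 12.5 CPM or less in control.

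Of the 10 targets of MLX with its glucose-responsive partners, 8 were tested, 3 rose and 1 fell, 50% of those tested (median log2 fold change 0.06). TXNIP, the classical target that limits glucose uptake, rose from 107 ± 1.13 to 135 ± 1.15 CPM (SD of 3 libraries a group). The log2 fold change was 0.36 ± 0.04 (SE) at an edgeR adjusted p of 1.77e-07. KLF10 and ELOVL6 had 0.31 and 0.19, and ACLY had -0.08, a call that was lost in 9 of 18 alternative fits. For ELOVL6 the groups overlapped. ARRDC4, the close relative of TXNIP that is induced with it, was at 10.0 ± 0.925 and 10.9 ± 0.313 CPM (SD of 3 libraries a group), with 0.258 as edgeR's adjusted p. Over the 10 lists, 75 of 171 tested genes passed (43.9%, against 38.5% of all genes), of which 43 were higher and 32 lower. That split depended on the scaling. With upper-quartile factors it was 36 higher and 43 lower, and with library size alone 34 higher and 55 lower.

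**Figure D4:**
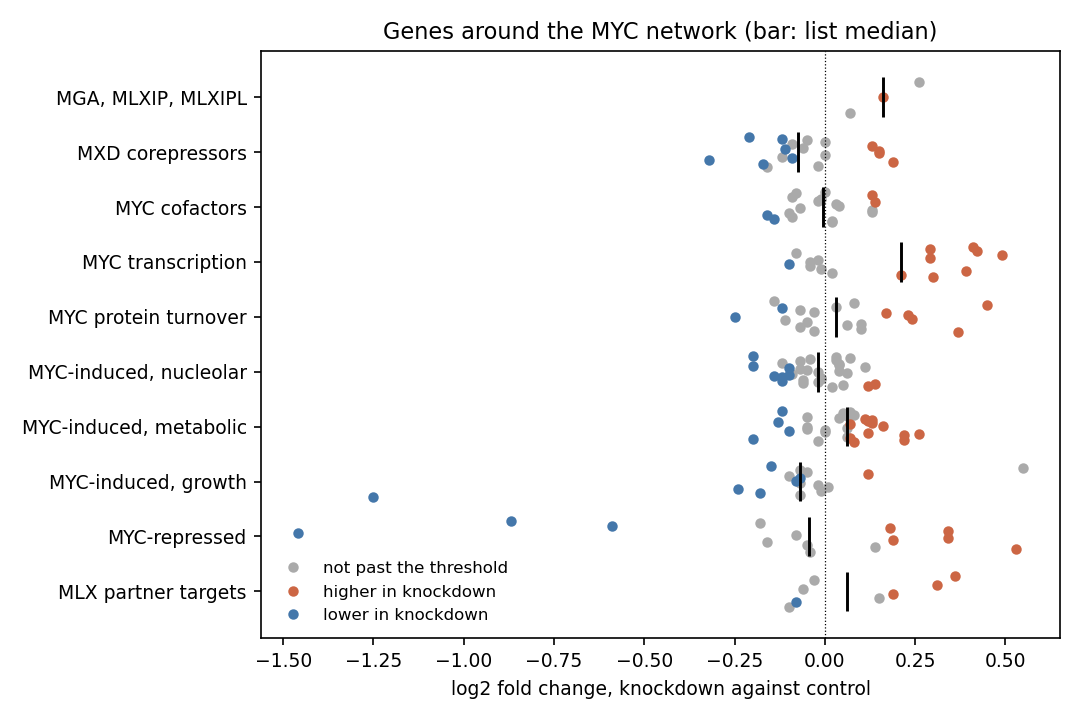
Log2 fold change of knockdown against control for each tested gene of the 10 lists, one row per list, with a black bar at the list median. Orange points are higher and blue points lower with an edgeR adjusted p under 0.05. The list of genes that regulate MYC transcription lies furthest to the right, with a median of 0.21, and the induced and repressed lists are centred close to 0, with medians from -0.07 to 0.06.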

How the data were processed

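Total RNA of 6 SW403 cultures was sequenced after a PCR-amplified Illumina library preparation, per the labels' protocols. The authors deposited a table of whole-number read counts per gene symbol and a table of a normalized signal, each library's counts divided by 1 constant. The submitters' processing notes name the build hg19, STAR 2.6.1a, Salmon and DESeq2, with no roles. The counting tool, strand setting and annotation are not given in the sources used here. Groups and replicate numbers came from the titles.

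Counts were tested with edgeR 4.0.16 in R 4.3.3 (TMM factors, filterByExpr, quasi-likelihood F-test, group as the only term), with Benjamini-Hochberg adjustment over 13832 genes and a threshold of 0.05. The SE follows from the fold change and its F statistic. With 3 against 3, an exact two-sided permutation test of 1 gene cannot go below 0.1. The members and lists were chosen with earlier results of these data known. The named genes were IRS2, the members, MGA, MLXIP, MLXIPL, the 3 smallest p-values in each direction of each list and the 3 profiles nearest to the member with the smallest p. SIN3A, CCNC, FBXW7, NCL, ODC1, CDKN1A, CDKN2B, CDKN2C, ARRDC4, PSMC3IP and the markers printed were chosen after their values were seen. Some genes that the rule names are not reported here. Coordinates and transcript lengths came from GENCODE 44 lifted to GRCh37. The alternatives were other scalings and filters, DESeq2 1.42.0, limma 3.58.1 (voom, and log2 of the deposited signal plus 1), thinning, a replicate block, offsets for GC content and transcript length, a threshold of 0.01 and each library left out. The main edgeR fit, and none of the alternatives, was tested on simulated counts, which held far fewer changed genes than were called here. Chi-square per degree of freedom between replicates was 1.41 to 2.78, more than counting error.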

Additional observations from a re-analysis of the deposited data

How the results depend on the processing

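The number of members past the threshold was 3 in every alternative except DESeq2's Wald test, where it was 2, with 1 higher, because MXD1 had an adjusted p of 0.0812. DESeq2's Wald test called 1643 lower genes in the whole table, against 2653. In the 10 lists, the number of lower genes was 55 with library size alone and 18 with the Wald test, against 32, and it ranged from 19 to 41 when 1 library was left out. It was 19 without control replicate 2, and 20 without knockdown replicate 1 or without knockdown replicate 2. The share of calls higher in knockdown over all genes was 50.2%, and 40.8% with library size alone, which moved the median log2 fold change from -0.004 to -0.035. The ratio of MYC to the 5 repressors was 2.43 in control and 3.14 in knockdown with the longest coding transcripts. With the replicate number as a block, 4862 genes passed, the same 3 members did (adjusted p 4.72e-05 for MYC, 0.0135 for MXD1, 1.52e-06 for MXD4), and 62 list genes did. Deviations of same-numbered libraries had correlations of 0.0447, -0.0112 and -0.0981, so the numbers were not taken to pair the samples, and 1 of 3 control libraries correlated best with the knockdown library of its number. Of 917 values for the 51 other genes that the naming rule takes, 851 stayed on their side of the threshold, 65 lost their call and 1 (MGA) gained it. The calls were lost in 13 of 18 alternative fits for TRRAP, 9 for ACLY, 8 for PRPS2, 7 for STUB1, 6 each for SAP130 and BRMS1, 4 for CDK9, 3 each for ID2 and ELOVL6, 2 for CTNNB1 and 1 each for SUDS3, PPAN, LDHA and NDRG2. The cause of these changes was not tested. At this depth a change of MYCL of the size seen for MYC was not detectable.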
